A study of Rattus norvegicus with 30 samples.

Results

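The comparison concerned primary rat hepatocytes that had received only the solvent, and it set the transcripts present 48 h after dosing against those present 24 h after dosing. Its members were the 5 arrays of the 48 h vehicle group and the 5 arrays of the 24 h vehicle group, 10 of the 30 arrays of the study, chosen by their titles. Across these arrays 14217 genes were compared, each through 1 probe set, the one with the highest mean log2 signal over all 30 arrays. The cells were frozen hepatocytes of male Sprague Dawley rats bought from a supplier. They were thawed, plated on collagen, covered with 0.25 mg/ml Matrigel, which is a basement membrane extract, and dosed on day 3 of culture. Both vehicle groups carried 1% dimethyl sulfoxide (DMSO). The other 20 arrays held the same kind of culture given 1 or 100 µM beta-naphthoflavone (BNF), a ligand of the aryl hydrocarbon receptor made up in the same solvent, for 24 or 48 h, with 5 arrays in each group. Each array was RNA from 1 well of a plate, and the labels call the 5 wells of a group independent cultures. No label ties a well to an animal or a vial of cells, and the p-values rest on how much wells differ. Freshly thawed cells and cells without DMSO were not analysed here, so the comparison describes the second day after dosing of a culture that was already some days old and carried the solvent throughout.

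Hepatocytes in the liver run a specialised set of genes that is maintained by a network of transcription factors, among them Hnf4a, Cebpa and the Foxa family. These genes serve drug metabolism by cytochrome P450 enzymes, bile acid uptake and secretion, the making of plasma proteins and lipoproteins, and the breakdown of amino acids. Hepatocytes that are taken out of the liver and plated are known to lose much of this set over days, a process called dedifferentiation, and a Matrigel overlay is one of the means used to slow it. Cultured cells also meet other conditions than in the liver, such as a medium that is changed at intervals and the absence of the hormone pulses and neighbouring cells of the tissue. The proteins that sense a shortage of amino acids or unfolded protein, which include Atf4, Ddit3 and the heat shock chaperones, are a separate set of genes that most cells can switch on.

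The values were linear signals per probe set, a measure of brightness without a unit, and changes are given on the log2 scale as 48 h minus 24 h with their standard error (SE). A gene is said to have risen or fallen where the adjusted p of limma was under 0.05 over all genes tested. By that rule 2450 of 14217 genes (17.2%) differed, of which 1228 (8.64%) rose and 1222 (8.6%) fell. The last 2 shares are the background for each count of a list given below. The changes were mostly small: the median fold of the genes called was 1.28, and 192 genes (1.35%) changed at least 2-fold, 84 (0.591%) of them higher and 108 (0.76%) lower. In 1654 genes (11.6%) the 5 arrays of one time did not overlap with the 5 of the other, 797 (5.61%) higher and 857 (6.03%) lower. Calls came mainly from bright genes, with 29.2% called above the median signal and 5.25% below it, so a dim gene that was not called may still have changed. The median change over all genes was 0.0049. Each array is scaled to one mean, which hides any shift common to most of its genes, and in bulk RNA fewer cells of a type and less RNA per cell cannot be told apart.

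The arrays separated by time. Principal components of the 10 arrays were taken from genes above the median signal only. The first held 50.2% of the variance of those genes. It placed the 24 h arrays between -13.0 and -7.31 and the 48 h arrays between 4.46 and 17.1, with 48 h replicate 5 nearest to the 24 h arrays. Over all genes, the mean absolute log2 difference between 2 arrays was 0.377 to 0.452 within a time and 0.444 to 0.515 between times. Of 5 measures of array quality, the smallest exact permutation p (two-sided) was 0.0476, for spiked controls at 13.3 against 13.2 log2 units, which was 0.238 after adjustment over the measures, with 0.00794 the smallest p that 5 against 5 arrays allow. Hepatocyte markers were bright at both times. Their summed signal over 7 measured genes ranged from 312070 to 368650 at 24 h and from 276400 to 334150 at 48 h, with overlap. Such a sum gives most weight to the brightest members and does not show each of them. Of the members described below, Cyp2e1 and Hnf4a fell without overlap and Alb did not pass the test.

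Cytochrome P450 genes of drug metabolism fell as a group. Of 25 measured genes, 19 (76%) fell and none rose, with a median log2 change of -0.75, beside 8.6% lower calls over all genes. Cyp3a2, a steroid and drug hydroxylase that is more abundant in male rats, had signals of 5647, 4043, 4832, 3686 and 4866 at 24 h and 1623, 1091, 867, 1049 and 941 at 48 h. Every 48 h well lay below every 24 h well, a fall of 4.20-fold (log2 change -2.07, SE 0.16, limma adjusted p = 6.07e-11). Cyp2c11, the main male-specific testosterone hydroxylase, gave 5062, 5714, 5818, 5723 and 6472 at 24 h and 1688, 1555, 1812, 1435 and 1660.4 at 48 h. The groups again did not overlap, and Cyp2c11 fell 3.53-fold (adjusted p = 2.8e-12). Cyp1a2, which oxidises caffeine and aromatic amines, gave 12700, 12748, 9837, 11301 and 13066 at 24 h and 3488, 2486, 3434, 3293 and 4169.6 at 48 h, a fall of 3.56-fold (adjusted p = 4.24e-13) with no overlap. Cyp2e1, the ethanol-oxidising P450, gave 8453, 7764, 9543, 8304 and 10292 at 24 h and 3382, 3036, 3908, 3013 and 3170.1 at 48 h, and fell 2.69-fold (adjusted p = 1.75e-14), also without overlap.

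The largest fall in the list was in Cyp2c12, which is more abundant in female rats, with 792, 583, 640.0, 559 and 452 at 24 h and 20.7, 25, 52.8, 274 and 333 at 48 h. Its groups did not overlap (log2 change -2.97, adjusted p = 0.00121), but its 48 h signals were faint, and it was named after its values were seen. Cyp2c13, another male-specific member, fell 4.18-fold, but the suffix of its probe set marks sequence shared with other genes. Cyp2c23, an arachidonic acid epoxygenase, fell 2.15-fold, Cyp2c7 2.07-fold and Cyp2a2, a male-specific testosterone hydroxylase, 1.75-fold. Por, the reductase that passes electrons to all of these P450s, fell 1.32-fold (adjusted p = 0.000641), with 24 h signals of 9794 to 11652 and 48 h signals of 6686 to 9231. It was named after its values were seen. Among the 6 members that did not pass were the next pair. Cyp3a23-3a1, a pregnane-inducible hydroxylase, had a log2 change of -0.13 (SE 0.09, adjusted p = 0.406). Cyb5a, cytochrome b5, which assists some P450 reactions, had -0.08 (adjusted p = 0.432).

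**Figure D1:**
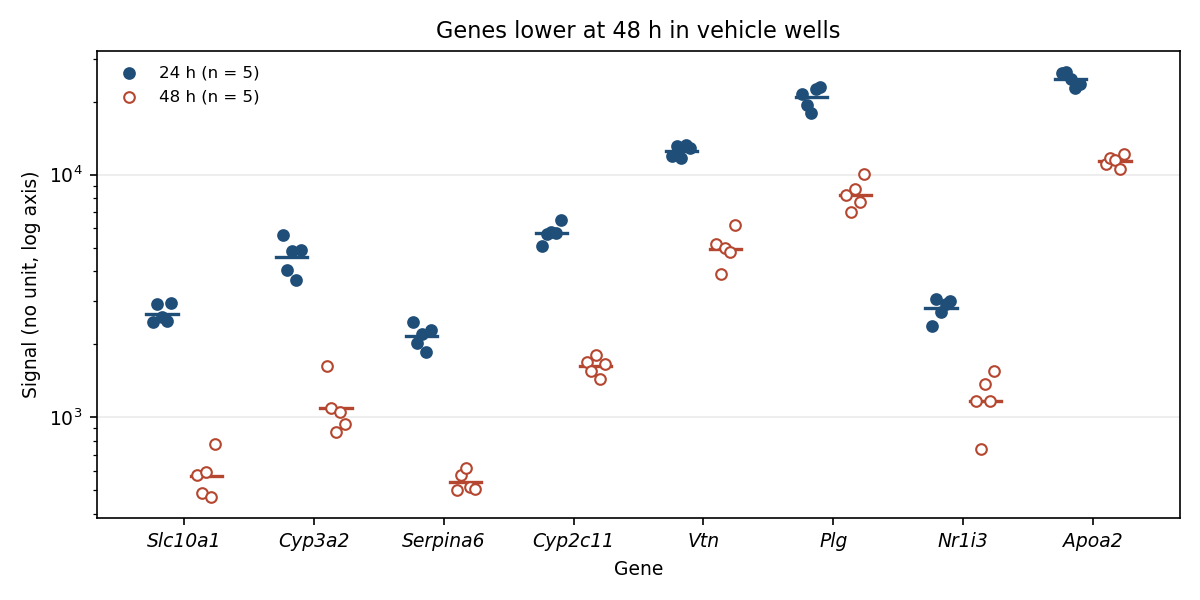
Signal of 8 genes that were lower at 48 h, on a log axis, for each of the 5 wells at 24 h (filled circles) and at 48 h (open circles), with a short bar at each group's geometric mean. In all 8 genes every 48 h well is below every 24 h well, from a 4.68-fold fall of Slc10a1 to a 2.17-fold fall of Apoa2. The 8 were chosen from genes that fell, and 6.03% of all genes were lower without overlap.

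Among 8 targets of the aryl hydrocarbon receptor 2 fell (25%) and 0 rose, beside 8.6% and 8.64% over all genes. The median log2 change of the 8 was 0.07, and 5 had a positive change. The 2 that fell were Cyp1a2 and Tiparp, an ADP-ribosyltransferase that feeds back on the receptor. Tiparp gave 3999, 3877, 3316, 3940.5 and 4338 at 24 h and 2697, 2502, 2409, 2860.3 and 3622 at 48 h, a fall of 1.39-fold (adjusted p = 3.11e-05) in which 48 h replicate 5 lay within the 24 h range. Cyp1a1, a highly inducible target, gave 11751, 15657, 7573, 13897 and 10283 at 24 h and 11080, 6211, 7444, 6523 and 16365 at 48 h. Its wells were scattered at both times, and its log2 change of -0.37 (SE 0.20) did not pass the test (adjusted p = 0.236). Without 48 h replicate 5, the highest well of its group, it did, at -0.59 (adjusted p = 0.0185). Growth hormone axis genes, many of which are the male-specific P450s above, held 11 lower (44%) and 0 higher calls among 25, beside 8.6% lower over all genes. Outside the P450s, Ghr, the growth hormone receptor, fell 1.44-fold (adjusted p = 9e-06), and Igf1, the growth factor that hepatocytes secrete in response to it, fell 1.71-fold (adjusted p = 0.000126). Their second probe sets also went down but missed the threshold, at -0.14 (adjusted p = 0.444) for Ghr and -0.64 (adjusted p = 0.0529) for Igf1.

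Conjugating enzymes of phase II, which attach glucuronic acid, sulphate or glutathione to drugs and hormones, were called in both directions. Of 33, 8 fell (24.2%) and 4 rose (12.1%), beside 8.6% and 8.64% over all genes. Their median log2 change was -0.21, and 26 had a negative change. Ugt2b1, a glucuronosyltransferase, gave 9264, 10516, 9586, 10995 and 11661 at 24 h and 5946, 4281, 5389.8, 4807 and 5209 at 48 h. It fell 2.03-fold (log2 change -1.02, SE 0.11, adjusted p = 4.47e-08) with no overlap. Sult1c2, a sulfotransferase, was dim but went the other way, with 391, 302, 224, 129.9 and 285 at 24 h and 592, 599, 617, 560.2 and 531 at 48 h, and rose 2.32-fold (adjusted p = 7.06e-05). Gsta3, a glutathione S-transferase, rose 1.19-fold and Nnmt, which methylates nicotinamide, 1.24-fold. Gstm1, a glutathione S-transferase named for its high signal, did not pass, with a log2 change of -0.07 (adjusted p = 0.607). Targets of NRF2, the regulator of antioxidant genes, were split more evenly, with 7 higher (33.3%) and 6 lower (28.6%) of 21 and a median log2 change of 0.02. Gpx2, a glutathione peroxidase, rose 1.50-fold (adjusted p = 3.9e-07), Hmox1, heme oxygenase, 1.26-fold and the exporter Abcc4 1.53-fold, while Akr1b8, an aldo-keto reductase, fell 1.37-fold.

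The largest fall among genes meeting the naming rule was in Slc10a1, the sodium-dependent transporter that brings bile acids from blood into the hepatocyte. Its signals were 2479, 2914, 2576, 2486 and 2958 at 24 h and 578, 488, 592, 471 and 775 at 48 h. A wide gap separated the groups, and the fall was 4.68-fold (log2 change -2.23, SE 0.16, limma adjusted p = 1.26e-11). Exporters of the bile canaliculus fell by less. Abcb11, the bile salt export pump, gave 18980, 17487, 16834, 18722 and 17454 at 24 h and 13727, 11612, 13318, 13758 and 16414 at 48 h, a fall of 1.31-fold (adjusted p = 0.000278). Abcb4, which moves phospholipid into bile, fell 1.52-fold, and Abcc6, an exporter of the basolateral membrane, 1.77-fold. In all, 9 of 29 hepatic transporters fell (31%) and 1 rose (3.45%), beside 8.6% and 8.64% over all genes. The 1 that rose was Abcb1a, the multidrug exporter, with 8007, 5601, 7510.2, 5048 and 5556 at 24 h and 9026, 9549, 9614, 11408 and 7169 at 48 h and a rise of 1.48-fold (adjusted p = 0.000364), and its groups overlapped. Abcc2, the canalicular exporter of conjugates, and Slc2a2, the hepatocyte glucose transporter, had log2 changes of -0.12 and -0.08 (adjusted p = 0.197 and 0.316).

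Genes of bile acid synthesis fell in 7 of 16 cases (43.8%) and rose in 1 (6.25%), beside 8.6% and 8.64% over all genes. Acox2, the peroxisomal oxidase that shortens the bile acid side chain, gave 2599.8, 2774, 2548, 3320.0 and 2982 at 24 h and 1179, 703, 1291, 1198 and 1528 at 48 h. It fell 2.48-fold (adjusted p = 1.52e-06) without overlap. Cyp8b1, which sets the share of cholic acid, gave 4446, 4905, 3696, 4914 and 4577 at 24 h and 2638, 1209, 2297, 1713 and 3392 at 48 h, a fall of 2.12-fold (adjusted p = 0.000125). Cyp7a1, the rate-limiting enzyme of the classic route, was dim, with 422, 446, 531, 523 and 585 at 24 h and 338, 262, 345, 285 and 282 at 48 h, and fell 1.66-fold (adjusted p = 0.00132) with groups apart. Slc27a5, which activates bile acids for conjugation, fell 2.08-fold (adjusted p = 1.34e-08). The next step of that conjugation went up: Baat, which joins bile acids to amino acids, gave 6766, 7156, 7688, 8842 and 7941 at 24 h and 11215, 10687, 11178, 9770.3 and 9509 at 48 h and rose 1.37-fold (adjusted p = 3.36e-05) without overlap.

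Plasma proteins made by hepatocytes fell far more often than they rose, and the falls differed widely in size. Of 34 secreted proteins 17 fell and 1 rose, with a median log2 change of -0.21. Serpina6, which carries corticosteroids in plasma, gave 2473, 2024, 2203, 1864 and 2296 at 24 h and 499, 576, 615, 514 and 508 at 48 h. It fell 4.00-fold (log2 change -2.00, SE 0.15, adjusted p = 1.56e-11), with no overlap. Vtn, vitronectin, an adhesive plasma protein, gave 11895, 13136, 11654, 13235 and 12854 at 24 h and 5168, 3877, 4997, 4814 and 6212 at 48 h and fell 2.53-fold (adjusted p = 1.87e-12). Afm, afamin, which carries vitamin E, fell 2.31-fold and Itih1, a heavy chain of the inter-alpha-trypsin inhibitor, 1.59-fold, both without overlap. The 1 that rose was Cp, ceruloplasmin, the copper-carrying ferroxidase, by 1.34-fold (adjusted p = 0.00129). Alb, albumin, named for its high signal, had a log2 change of 0.04 (SE 0.092, adjusted p = 0.854), with wells that ranged from 66700 to 87814 at 24 h and from 64023 to 84433 at 48 h.

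Coagulation genes followed the same direction, with 12 of 18 lower and 1 higher. Plg, plasminogen, the precursor of the enzyme that dissolves fibrin, gave 21543, 19401, 17964, 22564 and 22944 at 24 h and 8267, 6985, 8689, 7674 and 10030 at 48 h. It fell 2.52-fold (adjusted p = 8.55e-14) with a clear gap between the groups. The anticoagulants Proc, protein C, and Serpinc1, antithrombin, fell 1.42-fold and 1.33-fold, and the clotting factors F9, F10 and F12 fell 1.27-fold, 1.40-fold and 1.33-fold. Fibrinogen moved little: Fgb, its beta chain, fell 1.18-fold (adjusted p = 0.0126, but 0.922 as the mean of its probe sets) and Fgg, its gamma chain, had a log2 change of -0.06 (adjusted p = 0.674). Complement genes fell in 11 of 19 and rose in 1. C8g, a chain of the membrane attack complex, gave 16161, 15463, 15816, 15342 and 15106 at 24 h and 7563, 7545, 9008, 7349 and 8664 at 48 h, and fell 1.95-fold (adjusted p = 3.28e-12) without overlap. C6, C9 and C8b, other parts of that complex, fell 1.84-fold, 1.67-fold and 1.50-fold, and C4bpb, an inhibitor chain, 1.90-fold. C3, the central component, fell 1.23-fold (adjusted p = 0.00871) with overlapping groups.

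Apolipoproteins and enzymes of lipoprotein assembly held 11 lower and 0 higher calls among 18, with a median log2 change of -0.45. Apoa2, a structural protein of high-density lipoprotein, gave 26352, 26484, 24788, 22646 and 23553 at 24 h and 11107, 11694, 11506, 10562 and 12144 at 48 h. The 48 h wells were close together and well below the 24 h wells, a fall of 2.17-fold (log2 change -1.12, SE 0.078, adjusted p = 4.49e-12). Apoc1, which inhibits lipoprotein uptake, gave 42469, 46635, 42589, 45062 and 41979 at 24 h and 26488, 26950, 23230, 22645 and 27025 at 48 h and fell 1.74-fold (adjusted p = 2.52e-11). Apom and Apoc4 fell 1.78-fold and 1.67-fold. Lcat, the plasma enzyme that esterifies cholesterol, fell 1.93-fold, and Lipc, hepatic lipase, 1.91-fold. Apoc3 and Apoe, named for their high signal, had log2 changes of -0.04 and -0.07 (adjusted p = 0.796 and 0.549). Signals at the top of an array's scale can respond less than in proportion, and whether this made such changes small was not tested.

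Acute phase genes, which the liver makes in response to inflammation, did not share a direction. Of 30, 11 fell (36.7%) and 4 rose (13.3%), beside 8.6% and 8.64% over all genes. A2m, a broad protease inhibitor that is a major acute phase protein in rats, gave 52747, 55175, 44233, 55592 and 52710 at 24 h and 26092, 18387, 24026, 20966 and 36018 at 48 h. It fell 2.13-fold (adjusted p = 1.37e-08). Apcs, serum amyloid P, fell 1.50-fold with tight groups (adjusted p = 3.04e-12). Lbp, which binds bacterial lipopolysaccharide, gave 5756, 5659, 6391, 6418 and 6571 at 24 h and 10421, 10901, 9899, 10441 and 11357 at 48 h and rose 1.72-fold (adjusted p = 1.59e-10) without overlap. Crp, C-reactive protein, rose 1.56-fold (adjusted p = 0.000271), from 7886 ± 1485 (SD, n = 5) to 12212 ± 1132 (SD, n = 5). Cebpd, a transcription factor of the acute phase, rose 1.31-fold, with overlapping groups.

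The transcription factors that maintain these genes fell in 10 of 25 cases and rose in 1. Nr1i3, the receptor CAR, which drives P450 genes, gave 2373, 3066, 2712, 2922 and 3015 at 24 h and 1169, 738, 1372, 1162 and 1553 at 48 h. It fell 2.41-fold (log2 change -1.27, SE 0.20, adjusted p = 1.84e-05) without overlap. Foxa1, a factor that opens liver chromatin, gave 667, 738, 704, 945 and 692 at 24 h and 436, 188, 349, 307 and 573 at 48 h and fell 2.14-fold (adjusted p = 0.000486). Hnf4a, a central regulator of the hepatocyte, gave 9548, 9605, 8631, 10297 and 10156 at 24 h and 8272, 7488, 6926, 7137 and 8234 at 48 h, a fall of 1.27-fold (adjusted p = 9.11e-05) with groups apart. Its second probe set gave a log2 change of -0.04 (adjusted p = 0.857), so the fall of Hnf4a rests on 1 of 2 probe sets. Cebpa fell 1.20-fold (adjusted p = 0.00418, but 0.103 as the mean of its probe sets) and Nr1h3, the oxysterol receptor LXR alpha, 1.26-fold. The 1 that rose was Creb3l3, a membrane-bound factor of lipid and acute phase genes, by 1.26-fold (adjusted p = 1.38e-05) without overlap. Cebpb, Nr1i2, the receptor PXR, and Nr1h4, the bile acid receptor FXR, did not pass, with log2 changes of -0.08, -0.08 and -0.18 (adjusted p = 0.385, 0.557 and 0.222), though Cebpb passed without 48 h replicate 5 (adjusted p = 0.0376). The calls fell from 11 to 6 when a gene was taken as the mean of all its probe sets.

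Of 60 enzymes of the urea cycle and of amino acid breakdown 30 fell (50%) and 4 rose (6.67%), beside 8.6% and 8.64% over all genes. Their median log2 change was -0.26. Aldh4a1, of proline breakdown, gave 2321, 2454, 1797, 2629.6 and 2147 at 24 h and 1244, 1102, 1190.3, 1174 and 1422 at 48 h. It fell 1.84-fold (adjusted p = 4.72e-08) without overlap. Aass, which begins lysine breakdown, fell 2.03-fold, Amt, of the glycine cleavage system, 1.73-fold, and Tdo2, which opens the tryptophan ring, 1.45-fold, all without overlap. Glud1, glutamate dehydrogenase, fell 1.26-fold, from a 24 h range of 25994 to 28353 to a 48 h range of 19581 to 22622. The 4 that rose were Psph and Phgdh, enzymes that make serine, Asns, which makes asparagine, and Cdo1, which oxidises cysteine. Psph gave 3601, 3358, 3894, 3366 and 3404 at 24 h and 5077, 5136, 5067, 4960.2 and 4174 at 48 h and rose 1.38-fold (adjusted p = 6.54e-08) without overlap. Phgdh, Asns and Cdo1 rose 1.24-fold, 1.18-fold and 1.26-fold, and these 3 were named because they complete the count. Hpd and Ass1, named for their high signal, did not pass, with log2 changes of -0.13 and -0.10 (adjusted p = 0.199 and 0.264). After quantile normalization Hpd passed (adjusted p = 0.0305).

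Peroxisomal genes fell in 11 of 25 and rose in 1. Phyh, which begins the breakdown of phytanic acid, gave 30411, 31721, 27280, 29165 and 30381 at 24 h and 18282, 14481, 19276, 16846 and 19572 at 48 h, a fall of 1.69-fold (adjusted p = 3.07e-07) without overlap, and Hao2 and Hacl1, of hydroxy acid breakdown, fell 1.68-fold and 1.49-fold. Catalase, Cat, had a log2 change of -0.10 (adjusted p = 0.277). In glucose metabolism 11 of 32 fell (34.4%, beside 8.6% over all genes). Rises were called in 3 (9.38%), near the 8.64% over all genes. Slc37a4, which brings glucose 6-phosphate into the endoplasmic reticulum for the release of glucose, gave 19480, 24074, 19953, 22913 and 21504 at 24 h and 12791, 9812, 12255, 11666 and 14396 at 48 h. It fell 1.78-fold (adjusted p = 5.5e-06). Pklr, liver pyruvate kinase, fell 1.66-fold, Fbp1, of gluconeogenesis, 1.32-fold, and Pck1, its rate-setting enzyme, 1.63-fold. Slc2a1, the glucose transporter that is widespread outside the liver, gave 3359, 3771, 2729, 3554 and 3068 at 24 h and 4617, 4246, 4092, 4837 and 6992 at 48 h and rose 1.48-fold (adjusted p = 0.000416) without overlap.

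Lipid genes were divided. In fatty acid synthesis 8 of 24 fell (33.3%) and 5 rose (20.8%), beside 8.6% and 8.64% over all genes. Scd, the stearoyl-CoA desaturase, gave 32056, 33238, 29589, 35781 and 34587 at 24 h and 19678, 17219, 18368, 20270 and 27674 at 48 h. It fell 1.62-fold (adjusted p = 1.83e-06) without overlap. Acss2 and Acly, which supply acetyl-CoA, fell 1.56-fold and 1.33-fold, and Lpin1, a phosphatidate phosphatase, 1.75-fold. Dgat1 and Dgat2, which complete triglyceride synthesis, rose 1.34-fold and 1.24-fold (adjusted p = 4.93e-06 and 4.86e-05). In fatty acid oxidation 9 of 34 rose (26.5%) and 8 fell (23.5%). Cd36, which takes up fatty acids, gave 1088, 849, 984, 849.9 and 1373 at 24 h and 3056, 2728, 3294, 3599 and 3147 at 48 h, a rise of 3.11-fold (log2 change 1.64, SE 0.13, adjusted p = 3.12e-11) with groups far apart. Acot2, a mitochondrial thioesterase, rose 1.78-fold and Cyp4a1, a fatty acid omega-hydroxylase, 1.55-fold, while Pdk4, which holds back pyruvate oxidation, fell 1.74-fold. Outside the lists of pathways, Cidec, a lipid droplet protein, gave 3730.1, 2740.1, 3066, 3146 and 3900.1 at 24 h and 8480.1, 8119.7, 8037, 8041 and 7496 at 48 h and rose 2.44-fold (adjusted p = 1.78e-10). Soat1, which esterifies cholesterol, rose 3.32-fold from dim 24 h wells. Those wells gave 230.3 to 467, below 863.2, the median over all genes. Only its 48 h wells could meet the signal limit of the naming rule. Of 22 genes of cholesterol synthesis 6 rose (27.3%) and 4 fell (18.2%). Insig1, which restrains sterol synthesis, rose 1.52-fold with tight groups (adjusted p = 4e-12), and Ebp and Tm7sf2, of the late steps, fell 1.37-fold and 1.43-fold.

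**Figure D2:**
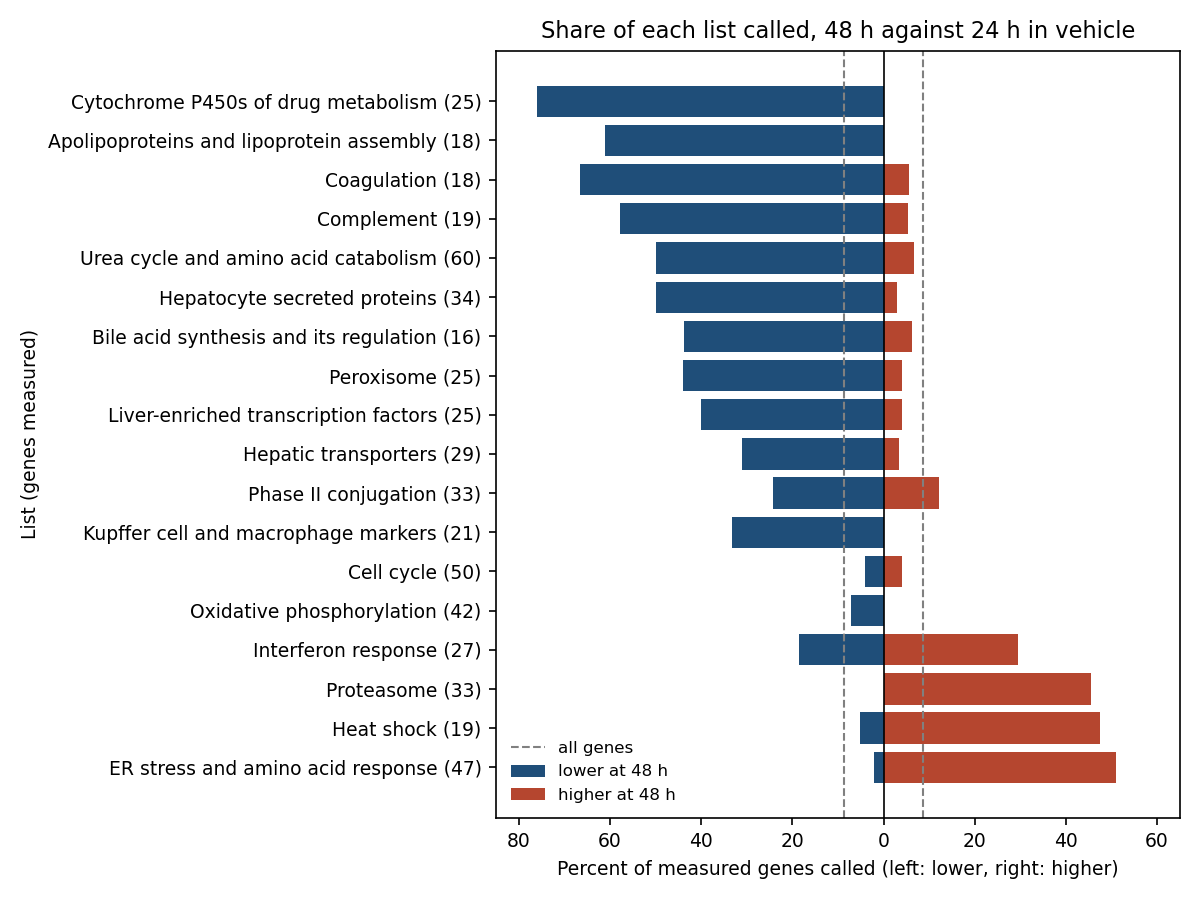
Percent of measured genes of 18 lists that rose (right) or fell (left) from 24 to 48 h in vehicle by limma at an adjusted p of 0.05, with the number of measured genes beside each name. The dashed lines mark the percent of all 14217 genes that rose (8.64) or fell (8.6). P450 genes reach 76% lower and genes of endoplasmic reticulum (ER) stress and the amino acid response 51.1% higher. The 18 are a choice from 43 lists, which were chosen with earlier results of these data known.

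Genes of endoplasmic reticulum (ER) stress and the amino acid response had the largest share of rises among the 43 lists, 24 of 47 (51.1%) against 8.64% over all genes. A fall was called in 1, and the median log2 change was 0.20. The lists were chosen with earlier results of these data known, so the ranking is only a description. In this response a shortage of amino acids or unfolded protein raises the factor Atf4, which then switches on genes of amino acid synthesis, transfer RNA charging and repair. Gdf15, a secreted stress signal, gave 1970.1, 1496, 2051, 954 and 1620.1 at 24 h and 2858, 4126, 3959, 3434 and 2309 at 48 h. It rose 2.09-fold (log2 change 1.06, SE 0.16, adjusted p = 8.41e-06), and although its wells varied at both times the groups did not overlap. Sesn2, a leucine sensor, gave 2769, 3094, 3117, 3588 and 3106 at 24 h and 6249.5, 7126, 5346, 6390.4 and 4856 at 48 h and rose 1.90-fold (adjusted p = 1.63e-08). Ddit3, the factor CHOP, gave 10012, 9950.2, 11421, 9846 and 10228 at 24 h and 14906, 16422, 16158, 16778 and 14197 at 48 h and rose 1.52-fold (adjusted p = 1.01e-08). In both genes all 48 h wells were above all 24 h wells, but the second probe set of Sesn2 gave -0.23 (adjusted p = 0.585). Chac1, which degrades glutathione, rose 1.45-fold, Atf3 1.53-fold, and the synthetase genes Wars1 and Sars1, which charge tryptophan and serine transfer RNA, 1.69-fold and 1.49-fold. Hspa5 and Pdia3, which help proteins fold in the ER, rose 1.14-fold and 1.18-fold. The call of Pdia3 was lost with the mean of its probe sets (adjusted p = 0.834), and its second probe set gave a log2 change of -0.14 (adjusted p = 0.767).

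The promoters of some of these genes are shown because the response is known to act through a short DNA element that Atf4 and its partners bind, and the data hold members with it that rose. The sequences are the 250 bases before the RefSeq start of each gene, in the gene's direction, build GRCr8, with matches to TGATGNAA or its reverse complement TTNCATCA in capitals. Chac1 is at chr3:126795881-126796130 on the plus strand, Trib3, a pseudokinase that feeds back on the response, at chr3:161275534-161275783 on the minus strand, and Herpud1, of ER protein degradation, at chr19:10614708-10614957 on the minus strand.
Chac1: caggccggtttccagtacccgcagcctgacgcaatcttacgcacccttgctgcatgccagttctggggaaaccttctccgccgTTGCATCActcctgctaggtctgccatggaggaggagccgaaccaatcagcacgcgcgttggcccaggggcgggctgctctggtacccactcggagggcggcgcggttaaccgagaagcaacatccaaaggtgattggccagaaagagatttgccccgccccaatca
Trib3: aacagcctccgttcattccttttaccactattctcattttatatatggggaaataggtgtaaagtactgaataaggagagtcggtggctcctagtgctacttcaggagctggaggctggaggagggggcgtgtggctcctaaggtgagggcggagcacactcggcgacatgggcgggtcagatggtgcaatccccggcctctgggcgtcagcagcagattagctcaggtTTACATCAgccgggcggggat
Herpud1: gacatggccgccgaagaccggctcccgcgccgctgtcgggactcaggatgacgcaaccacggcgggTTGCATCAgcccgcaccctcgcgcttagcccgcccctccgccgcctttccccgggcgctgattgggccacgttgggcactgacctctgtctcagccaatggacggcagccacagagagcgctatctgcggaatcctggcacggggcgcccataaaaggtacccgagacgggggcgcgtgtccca
Such a match was present in 5 of 21 genes of the list that rose and had a promoter sequence (23.8%), namely Aars1, Chac1, Fgf21, Herpud1 and Trib3. It was present in 7 of all 41 members with a sequence (17.1%), in 2.2% of the 11733 measured genes with a sequence and in 3.58% of 27457 genes in the promoter table. Trib3 gave 12335, 13885, 13033, 13443 and 15397 at 24 h and 17249, 17460, 14490, 17012 and 16448 at 48 h and rose 1.21-fold (adjusted p = 0.00231) with overlapping groups, and the suffix of its probe set marks shared sequence. Herpud1 rose 1.23-fold (adjusted p = 0.000245) without overlap, and Aars1 and Fgf21 rose 1.18-fold and 1.32-fold. Trib3, Herpud1 and Fgf21 were named for the match and not by the rule. A match describes the letters of this window alone.

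Heat shock genes, the chaperones that cells make when proteins unfold, rose in 9 of 19 (47.4%) and fell in 1, with a median log2 change of 0.19. Hspb1, a small heat shock protein, gave 4865, 5077, 5975, 4409 and 4967 at 24 h and 7848, 8154, 7609, 7008 and 7539 at 48 h. The groups were well apart, and it rose 1.51-fold (adjusted p = 5.84e-05). Hspa1a, the inducible Hsp70, rose 1.46-fold, Bag3, its cochaperone, 1.30-fold, Chordc1 1.29-fold and Dnajb1, an Hsp40, 1.27-fold, all without overlap. The 1 that fell was Hsbp1, by 1.22-fold. The mitochondrial chaperones Hspd1 and Hspe1 had log2 changes of 0.12 and 0.13 (adjusted p = 0.105 and 0.103). Both passed after quantile normalization (adjusted p = 0.00413 and 0.00108), and Hspd1 also without 48 h replicate 3 (adjusted p = 0.0383). Heat shock factor 1 binds repeats of a short unit, and 2 promoters are shown, with matches to GAANNTTC, which is its own reverse complement, in capitals: Hspb1 at chr12:26432302-26432551 on the minus strand with 2 matches, and Dnajb1 at chr19:41431142-41431391 on the minus strand with 1.
Hspb1: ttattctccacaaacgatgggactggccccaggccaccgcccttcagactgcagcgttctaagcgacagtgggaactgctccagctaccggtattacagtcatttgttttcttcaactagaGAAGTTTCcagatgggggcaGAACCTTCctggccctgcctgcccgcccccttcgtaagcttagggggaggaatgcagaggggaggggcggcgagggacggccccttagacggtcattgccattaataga
Dnajb1: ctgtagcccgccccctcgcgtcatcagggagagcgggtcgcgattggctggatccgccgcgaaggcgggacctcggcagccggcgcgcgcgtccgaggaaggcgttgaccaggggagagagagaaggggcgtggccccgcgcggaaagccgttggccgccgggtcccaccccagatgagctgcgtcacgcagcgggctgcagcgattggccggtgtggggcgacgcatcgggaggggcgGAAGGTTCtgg
The match was present in 5 of the 9 heat shock genes that rose (55.6%), namely Bag3, Dnajb1, Hspb1, Hspb8 and Hsph1, and in 9 of the 17 members with a sequence (52.9%). It was present in 5.42% of measured genes and in 7.71% of all genes in the table. Hsph1 and Hspb8, named for the match, rose 1.26-fold and 1.11-fold. Hspb8 missed the threshold without replicate 1, 2 or 4 of either time (adjusted p up to 0.158), with only the 10 vehicle arrays (0.0632), with centred arrays (0.0623) and without a mean-variance trend (0.0724), and the second probe set of Hsph1 gave adjusted p = 0.127.

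The proteasome, which breaks down tagged proteins, rose by small amounts in 15 of 33 subunit genes (45.5%) and fell in 0, with a median log2 change of 0.12. The count was 9 without 24 h replicate 2 or without 48 h replicate 2. Psma7 gave 17287, 16991, 18903, 17583 and 17847 at 24 h and 20964, 22630, 20663, 20920 and 20389 at 48 h, a rise of 1.19-fold (adjusted p = 5.22e-05) without overlap, and Psma5 and Psma4 rose 1.17-fold and 1.13-fold. Psme2, a subunit of the activator that interferon induces, rose more, 1.27-fold (adjusted p = 3.21e-06). Psma6 and Psmb4, named for their high signal, did not pass, with log2 changes of 0.05 and 0.03 (adjusted p = 0.637 and 0.767). After quantile normalization both passed (adjusted p = 0.0132 and 0.0369).

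Genes of the interferon response moved in opposite directions, 8 of 27 higher (29.6%) and 5 lower (18.5%), beside 8.64% and 8.6% over all genes. Several that rose serve antigen presentation. Psmb8, a catalytic subunit that replaces its constitutive counterpart in the immunoproteasome, gave 3430.1, 2852, 3291, 2911 and 2598 at 24 h and 6216, 6677, 5916, 6402 and 5072 at 48 h. It rose 2.01-fold (log2 change 1.01, SE 0.086, adjusted p = 3.31e-10) without overlap. Psmb10, another such subunit, gave 1521, 1575, 1312, 1254 and 1240.4 at 24 h and 2464, 2966, 2507, 2543 and 2065 at 48 h and rose 1.81-fold (adjusted p = 3.64e-09). Tap1, a chain of the pump that carries peptides into the ER, gave 1802, 1658, 1570.2, 1841 and 1753 at 24 h and 2932, 2687, 2751, 2588 and 2441 at 48 h and rose 1.55-fold (adjusted p = 4.97e-08). A second probe set of Tap1 gave a log2 change of 1.04 that was not past the threshold (adjusted p = 0.37). In these genes too every 48 h well exceeded every 24 h well, as in Gbp2, a guanylate-binding protein, which was dim and rose 2.50-fold. Ubd, a ubiquitin-like tag that interferon and tumour necrosis factor induce and that was in no list, gave 5947, 7038, 6980.1, 5936 and 6728 at 24 h and 18766, 18925, 14268, 16040 and 12331 at 48 h and rose 2.44-fold (adjusted p = 8.14e-11).

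The members that fell belong to the antiviral side of the response, though Ifit2, another antiviral gene that was named after its value was seen, rose 1.17-fold. Mx2, a guanosine triphosphatase that blocks viruses, gave 2103, 1667, 1617, 1114 and 1791 at 24 h and 618, 569.9, 593, 594 and 737 at 48 h. It fell 2.62-fold (adjusted p = 0.000122) without overlap, while a second probe set gave 0.11 (adjusted p = 0.881). Irf7 and Irf9, factors that carry the type I interferon signal, fell 1.69-fold and 1.46-fold, and Usp18 and Isg15, which remove and form a ubiquitin-like tag, fell 1.62-fold and 1.47-fold. The last pair was named to complete the count. B2m, the invariant chain of class I molecules, had a log2 change of -0.04 (adjusted p = 0.781). Interferon signalling is known to act through the element GAAANNGAA, and 2 promoters of genes that rose are shown with matches to it or to its reverse complement TTCNNTTTC in capitals: Tap1 at chr20:4668544-4668793 on the minus strand with 1 match, and Psmb10 at chr19:50743293-50743542 on the minus strand with 3 matches, of which 2 overlap.
Tap1: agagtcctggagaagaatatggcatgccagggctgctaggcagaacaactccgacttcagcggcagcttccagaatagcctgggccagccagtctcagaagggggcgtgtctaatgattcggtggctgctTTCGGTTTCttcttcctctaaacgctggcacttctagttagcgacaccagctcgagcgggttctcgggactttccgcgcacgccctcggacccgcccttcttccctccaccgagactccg
Psmb10: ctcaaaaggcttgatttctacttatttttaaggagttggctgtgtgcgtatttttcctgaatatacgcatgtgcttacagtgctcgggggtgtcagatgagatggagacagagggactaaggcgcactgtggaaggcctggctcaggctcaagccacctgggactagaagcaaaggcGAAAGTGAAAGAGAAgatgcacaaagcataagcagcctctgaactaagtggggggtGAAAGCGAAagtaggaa
The match was present in 4 of 7 genes of the list that rose (57.1%), namely Gbp2, Psmb10, Tap1 and Tap2, and in 1 of the 2 that fell and had a sequence, Irf7. It was present in 14 of all 21 members with a sequence (66.7%), in 6.66% of measured genes and in 8.66% of all genes in the table, so the element was shared by members that rose, fell and were not called. These 3 motifs were chosen, after the results were seen, from 20 pairs of a motif and a list that were searched.

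**Figure D3:**
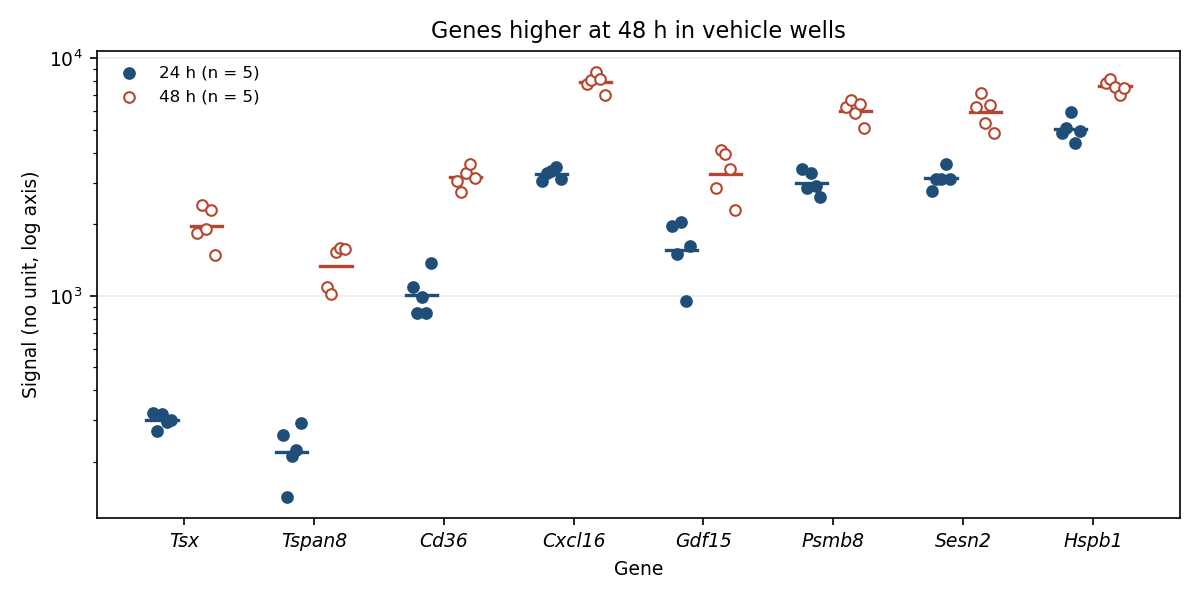
Signal of 8 genes that were higher at 48 h, on a log axis, for each of the 5 wells at 24 h (filled circles) and at 48 h (open circles), with a short bar at each group's geometric mean. In all 8 genes every 48 h well is above every 24 h well, from a 6.56-fold rise of Tsx to a 1.51-fold rise of Hspb1. The 8 were chosen from genes that rose, and 5.61% of all genes were higher without overlap.

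Among genes that met the naming rule the largest rise was in Tsx, the testis-specific X-linked gene, with 322, 269, 319, 293 and 299 at 24 h and 1836, 2424, 1919, 2309.9 and 1491 at 48 h. Its groups were far apart, a rise of 6.56-fold (log2 change 2.71, SE 0.12, adjusted p = 1.07e-16). Tspan8, a membrane protein of the tetraspanin family, gave 260.4, 143, 211, 225 and 292 at 24 h and 1092, 1016, 1526, 1597 and 1571 at 48 h and rose 6.07-fold (adjusted p = 8.45e-08). Cox6a2, the form of a cytochrome oxidase subunit that is typical of muscle, gave 1307, 979.5, 1007, 1130.5 and 1047 at 24 h and 3538, 3536, 3627, 3628 and 2976 at 48 h, a rise of 3.17-fold (adjusted p = 1.92e-13). Tsx and Tspan8 rose from signals below 863.2, the median over all genes, and met the rule's signal limit only through their 48 h wells. The groups did not overlap in any of the 3, which the rule required. Acta1, an actin also typical of muscle, rose 2.36-fold. Cxcl16, a chemokine and scavenger receptor, gave 3036, 3285, 3362, 3489 and 3097 at 24 h and 7805, 8079, 8770.0, 8226 and 6988 at 48 h, and rose 2.45-fold (adjusted p = 1.66e-13). Klf4, a transcription factor, gave 1441, 1533, 1567, 1613 and 1637 at 24 h and 3726, 3253, 3294, 3254 and 2417 at 48 h and rose 2.03-fold (adjusted p = 2.19e-09). Manba, a lysosomal mannosidase, rose 2.16-fold and Erp29, a protein of the ER, 2.41-fold, each with tight groups. Serpine2, a protease inhibitor, rose 2.32-fold. Tgfb2, a growth factor of the transforming growth factor family, rose 2.63-fold (adjusted p = 4.16e-06), and its probe set carries a suffix for shared sequence, as do those of Cd36 and Soat1. The second probe set of Tgfb2 did not pass (adjusted p = 0.355).

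Genes of the cytoskeleton, which often rise when hepatocytes spread in culture, rose in 11 of 52 (21.2%) and fell in 5 (9.62%). The shares over all genes were 8.64% and 8.6%, so the falls were near that share. The median log2 change was -0.01, and 0.02 after quantile normalization. Anxa5, which binds membranes in the presence of calcium, gave 8348, 6791, 8660.0, 7508 and 5701 at 24 h and 11796, 14868, 12134, 11875 and 11452 at 48 h, a rise of 1.69-fold (adjusted p = 6.65e-07) without overlap. Tagln2 and Cnn3, actin-binding proteins, rose 1.62-fold and 1.54-fold, and Krt8, a hepatocyte keratin, fell 1.18-fold with overlapping groups, a call lost without replicate 2 or 4 of either time or without 48 h replicate 3 (adjusted p up to 0.0908) and with arrays centred on their median (0.0616). Vim, vimentin, which is typical of mesenchymal cells, gave 5098, 6363, 3773, 7444 and 4911 at 24 h and 3319, 1747, 2661, 2505 and 5496 at 48 h. Its log2 change of -0.88 (adjusted p = 0.00773) was a fall, 48 h replicate 5 lay within the 24 h range, and Vim was named after its value was seen. Of 57 matrix genes 3 rose and 6 fell, near the shares over all genes. Lox, which cross-links collagen, gave 5939, 5825, 3203, 6149.9 and 5049 at 24 h and 1977, 648, 1305, 958 and 1939 at 48 h and fell 4.06-fold (adjusted p = 9.5e-08). Fn1, fibronectin, fell 1.37-fold and Ccn2, a target of transforming growth factor beta and YAP, 1.55-fold. Junction genes fell in 5 of 25 (20%) and rose in 3 (12%), beside 8.6% and 8.64% over all genes. Cdh1, E-cadherin, fell 1.51-fold (not past the threshold by its second probe set, adjusted p = 0.64). Gjb1, the main hepatocyte connexin, fell 1.47-fold, while Gjb2 rose 1.14-fold.

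Some groups had a smaller share of calls than the 17.2% over all genes. Of 50 cell cycle genes 2 rose and 2 fell. Cdk4 and Pcna, which act at the start of the cycle and in DNA synthesis, rose 1.38-fold and 1.17-fold, and Cdkn1a, the inhibitor p21, fell 1.33-fold, with -0.02 (adjusted p = 0.921) by a second probe set. Of 42 genes of oxidative phosphorylation 3 fell and 0 rose, with Sdha, of succinate dehydrogenase, at a fall of 1.31-fold. The count was 1 without 48 h replicate 4 or with arrays centred on their median, and 5 after quantile normalization. Calls went both ways in other groups. Of 20 clock genes 3 fell, 15% beside 8.6% over all genes, and 1 rose, and as the mean of all probe sets 1 fell and 1 rose. In the tricarboxylic acid cycle 4 of 20 rose (20%) and 5 fell (25%), beside 8.64% and 8.6% over all genes. The count was 5 in all without 24 h replicate 2, 48 h replicate 2 or 48 h replicate 4. Of 32 inflammatory genes 6 rose (18.8%), among them Icam1, an adhesion molecule, by 1.42-fold, and Sod2, by 1.28-fold. The 2 that fell (6.25%, beside 8.6% over all genes) were the chemokines Cxcl9 and Ccl5, by 1.51-fold and 1.53-fold.

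Markers of the other cells of the liver were measured in the same arrays. Of 21 markers of Kupffer cells, the macrophages of the liver, 7 fell (33.3%, beside 8.6% over all genes) and none rose. Their summed signal ranged from 28249 to 32404 at 24 h and from 23661 to 25860 at 48 h, without overlap, and 14 of the 21 were below the median signal of all genes. Cd5l, a macrophage protein, gave 901, 698, 951, 816 and 969 at 24 h and 244, 217, 536, 457 and 412 at 48 h, a fall of 2.45-fold (adjusted p = 9.66e-06, and 0.278 by a second probe set). C1qb, a chain of the first complement component, gave 1179.8, 1392, 1501, 1150.5 and 1479 at 24 h and 626, 898, 920.2, 640.4 and 819.8 at 48 h and fell 1.73-fold (adjusted p = 0.0025). Cd14, which hepatocytes also express, fell 1.29-fold, and Cd68, a general macrophage marker, had a log2 change of -0.01 (adjusted p = 0.989). Of 18 stellate cell markers Lox was the 1 called, and 2 were called without 24 h replicate 3, 48 h replicate 3 or 48 h replicate 4 or without a mean-variance trend. The summed signal was 7883 to 11649 at 24 h and 5203 to 7199 at 48 h, but without Lox it was 4680.3 to 5709.6 and 4397 to 5359.5, with overlap. The other 17 stellate markers were below the median signal of all genes. Of 16 markers of endothelial cells 2 were higher and 2 lower, 12.5% each way beside 8.64% and 8.6% over all genes. Of 10 cholangiocyte markers 1 was higher and 1 lower, 10% each way and near the shares over all genes. In all 0 or 1 was called with only the 10 vehicle arrays, without 24 h replicate 2, 4 or 5 or without 48 h replicate 1, 2 or 5. Of 16 lymphocyte markers 0 were higher and 1 lower (6.25%). The part of these cells in the falls of Cxcl9, Ccl5, Lox and Vim was not tested.

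The BNF arrays gave the same time comparison in other wells. These enter the vehicle contrast through the shared estimate of the spread and through the choice of probe set, made over all 30 arrays. With only the 10 vehicle arrays in the fit 1967 genes were called in vehicle, of which 1867 were among the 2450. At 1 µM 1926 genes (13.5%) differed between 48 and 24 h, 6.82% of all genes higher and 6.72% lower, and at 100 µM 2438 (17.1%), with 8.89% of all genes higher and 8.26% lower. Of these 2438 calls 51.8% were higher, a share that became 63.3% with arrays centred on their median. Of the 2450 genes called in vehicle, 2275 (92.9%) had the same sign at 1 µM and 2241 (91.5%) at 100 µM, beside 65.6% of all genes at either dose. Calls in the same direction numbered 1243 at 1 µM, which is 50.7% of the vehicle calls and 64.5% of the calls at that dose, and 1387 at 100 µM, which is 56.6% and 56.9%. Calls in the opposite direction numbered 4 and 13. At all 3 concentrations 1021 genes (41.7% of the vehicle calls) were called in the same direction, 502 higher and 519 lower.

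**Figure D4:**
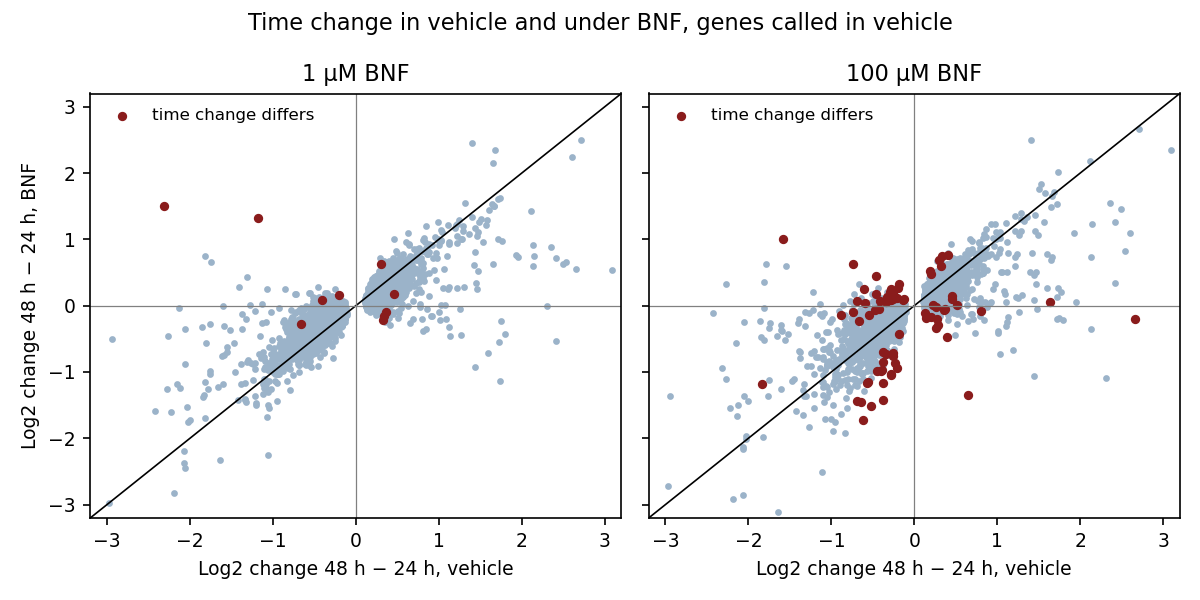
Log2 change from 24 to 48 h in vehicle (horizontal) against that at 1 µM BNF (left) and 100 µM BNF (right) for the 2450 genes called in vehicle, with the line of equal change. Genes whose time change differed from vehicle by limma are drawn dark, and of 2450 genes 2275 at 1 µM and 2241 at 100 µM have the sign they have in vehicle.

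Of the 192 genes that changed at least 2-fold in vehicle, 87.5% had the same sign at 1 µM and 88% at 100 µM, and 50.5% and 49.5% were called in the same direction. Some of the genes described above are examples. Slc10a1 changed by -1.61 log2 units at 1 µM and -1.54 at 100 µM, beside -2.23 in vehicle. Cyp2c11 changed by -1.70 and -1.99, and Vtn by -1.41 and -1.64. Tsx changed by 2.49 and 2.67, and Psmb8 by 0.91 and 1.09. P450 genes fell in 19 and 22 of 25 at the lower and the higher dose, and ER stress genes rose in 20 and 25 of 47. Proteasome subunits rose in 7 and 11 of 33. Whether their change at each dose differed from that in vehicle was tested for each gene alone, with no gene of the list called. The 2 doses were not tested against each other.

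Genes whose time change in vehicle differed from that under BNF were few, by the limma test of the difference itself: 13 genes (0.0914%) at 1 µM, with 0.0492% of all genes changing more upward than in vehicle and 0.0422% more downward, and 112 (0.788%) at 100 µM, with 0.38% and 0.408%. The 2 tests share the vehicle arrays. The count at 1 µM was unsteady: it was 0 with arrays centred on their median and between 2 and 22 when 1 vehicle array was left out, with 2 without 24 h replicate 1, 24 h replicate 5 or 48 h replicate 3, 3 without 48 h replicate 1 or 2, 4 without 48 h replicate 4, 20 without 24 h replicate 3 and 22 without 48 h replicate 5. Cd36, which rose 3.11-fold in vehicle, changed by 1.53 log2 units at 1 µM and 0.05 at 100 µM, a difference of -1.59 at the higher dose (adjusted p = 2.11e-06). Crp changed by 0.65 in vehicle and -1.35 at 100 µM, a difference of -1.99 (adjusted p = 1.05e-08). Akr1b8 changed by -0.46 and 0.45, a difference of 0.91 (adjusted p = 3.79e-06). Falls that were larger in vehicle included Fetub, fetuin-B, with -0.74 against -0.09 at 100 µM (adjusted p = 3.06e-05). Acly and Itih1 differed at both doses. Acly changed by -0.41 in vehicle, 0.08 at 1 µM and 0.08 at 100 µM (adjusted p = 0.0115 and 0.00113), and Itih1 by -0.67, -0.28 and -0.24 (adjusted p = 0.0258 and 0.00143). Ugt2b, a glucuronosyltransferase, did not change in vehicle by the test (-0.06, adjusted p = 0.684) and fell at 100 µM (-1.52), a difference of -1.46 (adjusted p = 4.33e-10).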

How the data were processed

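RNA from 30 wells of rat hepatocytes was hybridised to Affymetrix rat arrays with 31099 probe sets. The deposited values are linear signal intensities, for which MAS5 is named in the submitters' processing notes as the authors' tool. Every array had a trimmed mean (2% from each end) of about 1500, so the values were scaled per array. The sources used here give neither its settings nor a scan batch. The table held 0 columns of other samples.

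Log2 was taken with no offset and no further normalization. Of the probe sets, 57 were controls, 20826 had 1 gene symbol, 436 several and 9780 none. Only those with 1 symbol were used, and 20758 of them matched RefSeq. Of the 14217 genes, 4525 had more than 1 probe set. A model with 6 groups over all 30 arrays (24 residual degrees of freedom) was fitted with limma 3.58.1 in R 4.3.3 with a mean-variance trend. Calls were made at 0.05 after Benjamini-Hochberg adjustment across the 14217 genes.

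Tested on simulated data with 200 of 14217 genes changed (10 rounds), this fit recovered 50% of changes of 0.5 log2 units, 68.7% of 1 and 85.6% of 2, with 5.21% false among calls. The simulated noise was normal and independent between genes, and the data gave 2450 calls in vehicle. These shares may therefore differ in the data.

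Genes were named by rule. The rule took the 20 highest and 20 lowest called changes among genes without overlap whose higher group mean was above the median signal. It also took up to 6 called and the 2 highest-signal members of each list. All transcription factors, clock genes, receptor targets and cell markers were included. So were, for each dose, the 5 most significant differences from the vehicle time change in each direction. Of 417 genes that the rule allowed, the text names those that show a group's pattern. The other genes are marked where they appear. The 43 lists held 1221 symbols, of which 1067 were measured. The members and lists were chosen with earlier results of these data known, so counts are descriptions. The number of arrays limits precision.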

Additional observations from a re-analysis of the deposited data

Results flagged for a closer look

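Among 394 sets of 5 signals (1 gene at 1 time), 20 (5.08%) held a well whose gap to the nearest other well took more than 0.71 of the range, and chance alone flags about 1 in 20 such sets. At 24 h the wells that stood apart were A2m in replicate 3 (44233, below the others), Dgat2 in replicate 1 (13511, below), Soat1 in replicate 2 (230.3, below), Ddit3 in replicate 3 (11421, above), Hmox1 in replicate 2 (23511, above), Hspe1 in replicate 3 (44149, above), Pdk4 in replicate 3 (14735, above), Psme2 in replicate 2 (13853, above), Serpine2 in replicate 5 (874.01, above) and Tap2 in replicate 1 (1151, above). At 48 h replicate 2 was below its group in C6 (402), Cyp3a23-3a1 (28542), Fbp1 (8926) and Proc (4628), and above it in Anxa5 (14868) and Psma7 (22630). At 48 h replicate 5 was below its group in Chac1 (7407), Cox6a2 (2976) and Psph (4174) and above it in Cebpb (14262).

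Several genes had a time change that differed from vehicle by limma's test of the difference. At 1 µM BNF the change was higher than in vehicle by 0.50 log2 units in Acly and by 0.39 in Itih1. At 100 µM it was higher by 0.49 in Acly, 0.43 in Itih1, 0.91 in Akr1b8, 0.74 in Aldh4a1, 0.41 in Creb3l3, 0.66 in Cyp1a2 and 0.64 in Fetub. The difference at 100 µM was -0.59 in Abcb11, -0.47 in Cd14, -1.59 in Cd36, -0.86 in Cebpd, -1.99 in Crp, -0.39 in F9, -0.59 in Por, -0.74 in Scd and -1.46 in Ugt2b.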

How the results depend on the processing

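The 2450 calls in vehicle stayed within 1.5 times under every alternative except a stricter threshold: with an adjusted p of 0.01 they were 1489, and 1229 of 1926 at 1 µM and 1570 of 2438 at 100 µM. With 1 array left out the counts were 1909 to 2529 in vehicle, 1643 to 1942 at 1 µM and 2057 to 2310 at 100 µM. The genes whose time change differed at 1 µM, 13 in all, became 20 after quantile normalization, 0 with arrays centred on their median, 4 without a mean-variance trend, 1 with the mean of all probe sets, 1 at an adjusted p of 0.01 and 2 to 22 with 1 array left out. The 112 at 100 µM became 174 without dim genes and 45 at 0.01, and 93 to 154 with 1 array left out. The cause was not tested.

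Of 174 called genes named in the text, 166 kept direction and call under all alternatives that included them, a second probe set aside. The fit without genes below the median signal included 177 of the 197 genes named, called or not. The second probe set gave the same direction and call in 23 of 36. It reversed Mx2 (0.11), Pdia3 (-0.14), Sesn2 (-0.23) and the uncalled Alb (-0.042) and Apoe (0.24). As the mean of all probe sets, Alb was -0.0014 and Apoe 0.082. Other uncalled values near 0 changed sign. Cd68 was 0.024 after quantile normalization, 0.016 with centred arrays and -0.073 to 0.059 with an array left out. Alb was -0.0057 without 24 h replicate 3 and Apoc3 ran from -0.082 without 48 h replicate 5 to 0.0068 without 48 h replicate 3. Quantile normalization added calls for Hpd, Hspd1, Hspe1, Psma6 and Psmb4, which were uncalled in the main fit. Hepatic transporters had 6 calls among genes above the median signal. The labels carry no replicate numbers, but running numbers in the array titles form 5 sets with 1 array of each group. As a replicate block, an alternative chosen after the data were seen, the sets gave 2519 calls in vehicle, 1976 at 1 µM and 2467 at 100 µM, with 9 and 130 differences, and changed no call of a gene named in the text. The deviations of the 24 h and 48 h vehicle arrays of a set correlated at -0.0199 to 0.0334 across genes, and in 1 of 5 sets these arrays correlated best with each other, so the numbers were not taken as pairs.

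Wells cannot be tied to animals, dim genes are called less often, and per-array scaling hides any change shared by most genes.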

Other observations

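The counts of 4 further gene lists are given here. The lists were drawn up after the data had been seen. Genes of the lysosome, the compartment that degrades proteins, lipids and glycans, rose in 20 of 62 cases (32.3%), beside 8.64% over all genes. They fell in 5 (8.06%), near the 8.6% over all genes, with a median log2 change of 0.11. Manba gave 2679, 2651, 2985, 2924 and 2908 at 24 h and 6773, 6279, 5254, 6468 and 5840.4 at 48 h, and all 48 h wells were above all 24 h wells. Gpnmb, a glycoprotein of lysosomes, rose 1.95-fold (limma adjusted p = 7.88e-11), Grn, progranulin, 1.73-fold and Neu1, a sialidase, 1.35-fold, all without overlap. Cathepsin S, Ctss, fell 1.42-fold. Genes of antigen processing and the immunoproteasome rose in 11 of 16 cases (68.8%, beside 8.64% over all genes) and fell in 0. Tapbp, which helps to load peptides, rose 1.36-fold (adjusted p = 6.23e-07). This list overlaps the interferon and proteasome lists.

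Of 19 cytosolic aminoacyl-tRNA synthetases 5 rose (26.3%) and 0 fell. Of 13 mitochondrial ones 1 rose (7.69%), near the 8.64% over all genes. The difference between these lists was not tested.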
